A study of Saccharomyces cerevisiae with 12 samples.

Results

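The genes described here are 10 budding yeast genes of thiamine (vitamin B1) uptake, of its regulation and of thiamine-linked metabolism. They were THI7, THI72 and THI73 (permeases), THI2, THI3 and PDC2 (regulators), THI80 (synthesis of thiamine pyrophosphate), PET18 (a gene of unknown role), PDC5 (a pyruvate decarboxylase) and PHO3 (an acid phosphatase). Each was found on the array by the systematic open reading frame name of its symbol, and these 10 are part of 6228 genes on the array. All 10 were well above background on all 12 arrays, so none was lost to the filter that left 6127 genes for testing.

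RNA from 12 cultures was hybridised to single-colour Agilent arrays, in 4 groups of 3 independent experiments. The groups were a BY4741 strain with CTR1 deleted that over-expressed a construct named CTR1D300 (Dctr1_CTR1D300, here CTR1D300), the same deletion strain with an empty vector (Dctr1_Con), wild-type BY4741 over-expressing CTR1 (WT_CTR1) and wild-type BY4741 with an empty vector (WT_Con). CTR1 encodes the high-affinity copper transporter of the plasma membrane. All 4 groups carried a plasmid and were grown for 7 h at 30 °C and 180 rpm in medium without leucine with 0.02 mM CuCl2, from a starting OD600 of 0.6, so no group without added copper was compared. The sources used here do not give the promoter of the constructs, the number of clones or the thiamine content of the medium.

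Thiamine pyrophosphate is the cofactor of pyruvate decarboxylase, transketolase and several dehydrogenases. Budding yeast takes up thiamine through the Thi7 permease or makes it from separately built pyrimidine and thiazole parts, and Thi80 adds the pyrophosphate. When the pyrophosphate is scarce, the genes of synthesis and uptake are switched on together with PDC5 and PHO3, and ample thiamine shuts these genes down. Thi2, Thi3 and Pdc2 are regulators of this response, though not necessarily all of them for each gene.

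Levels are log2 processed signals minus the 75th percentile of the same array. They serve to compare cultures for 1 gene and not genes with each other. A log2 fold change is a difference of such levels, given ± SE from a limma fit across 6127 genes, and a gene was called when its Benjamini-Hochberg adjusted p was under 0.05. Arrays of a group correlated across genes at r between 0.992 and 0.998, and the number of arrays limits the precision. On the CTR1 probe 0 of 3 CTR1D300 arrays and 0 of 3 Dctr1_Con arrays were well above background, so CTR1D300 itself was not read. The probe averaged 4.62 ± 0.13 in WT_CTR1 and -2.50 ± 0.03 in WT_Con (SD, n = 3 each). LEU2, a leucine synthesis gene absent from the BY4741 chromosome, averaged -0.79 ± 0.65 in CTR1D300, 5.59 ± 0.19 in Dctr1_Con, 4.35 ± 0.18 in WT_CTR1 and 5.86 ± 0.16 in WT_Con (SD, n = 3 each). Its part in the results below was not tested. All empty-vector arrays shared 1 slide column and all over-expressing arrays the other, so construct and slide column cannot be told apart. Slide 1 held replicate 1 of every group. Replicates 2 and 3 of the wild-type groups were on slide 2, and those of the deletion strain were on slide 3.

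The first comparison asked what CTR1D300 changed in the deletion strain. Most of the thiamine-linked genes were far lower with the construct: THI73 13.7-fold, PET18 8.09-fold, THI2 7.17-fold, PDC5 5.73-fold, THI7 3.69-fold and PHO3 3.19-fold. THI3 and THI80 were each 1.41-fold lower, while THI72 was 1.62-fold and PDC2 1.25-fold higher. By limma, 10 of 10 genes were called, 2 higher and 8 lower, where 54.5% of all genes tested were called, 24.0% higher and 30.6% lower. Of all genes, 4.72% were called and at least 2-fold lower, and 6 of the 10 were. The median log2 fold change was -1.78 over the 10 genes and -0.05 over all genes tested. The CTR1D300 and Dctr1_Con levels did not overlap for any of the 10, as for 62.8% of all genes. RNA came from whole cultures, so fewer expressing cells and less RNA per cell cannot be told apart.

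**Figure D1:**
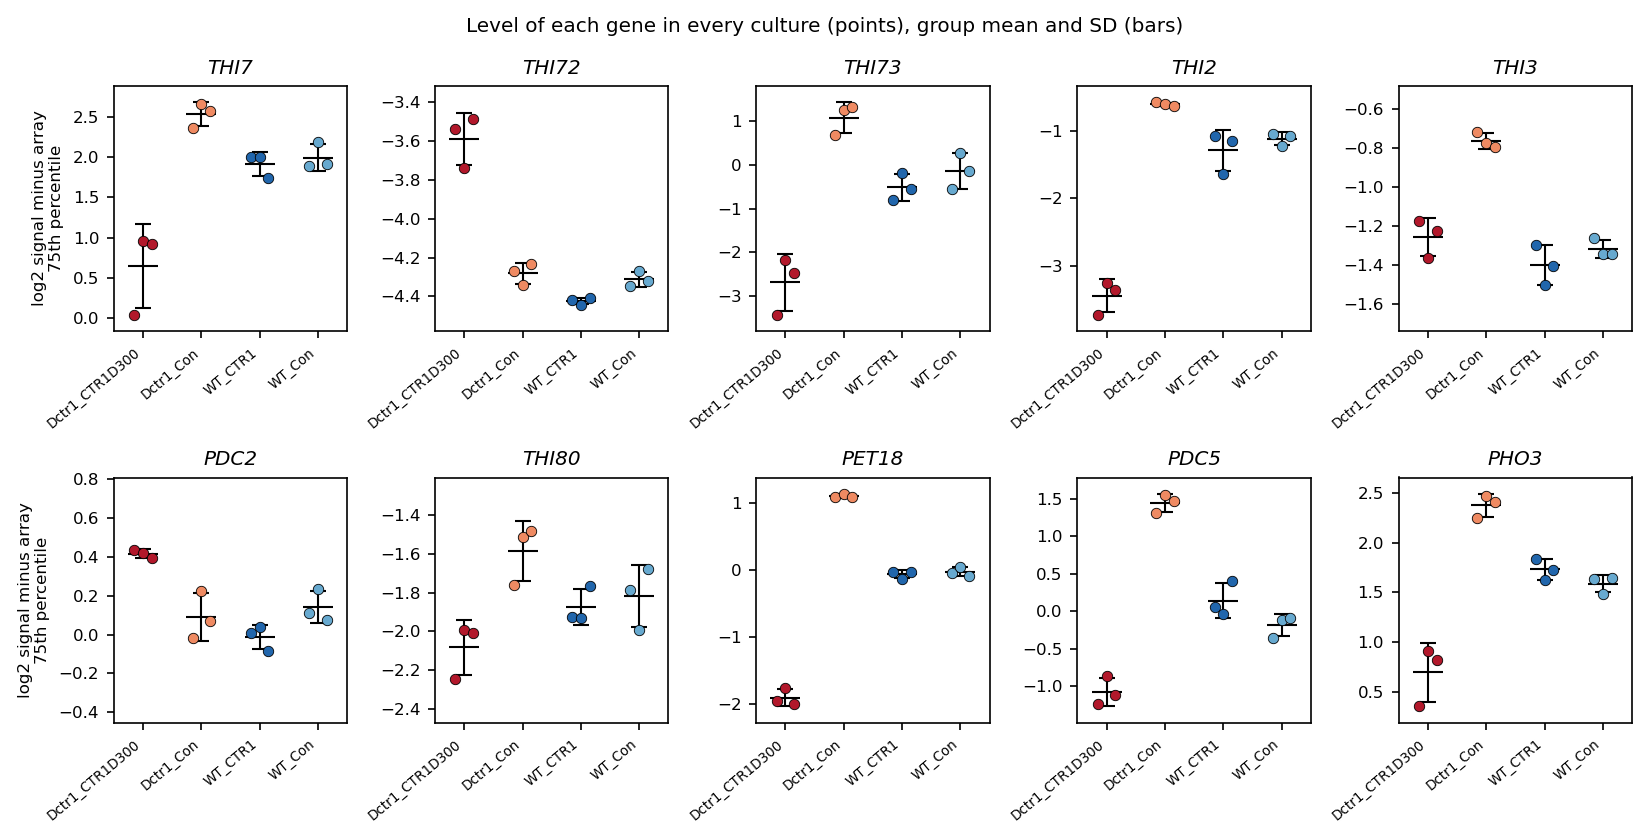
Level of each gene in every culture (y axis, log2 signal minus the 75th percentile of the array; axes differ between genes), with points for the 3 cultures of each group and bars for the group mean and SD. CTR1D300 has the lowest mean for THI7, THI73, THI2, THI80, PET18, PDC5 and PHO3 and the highest for THI72 and PDC2, and Dctr1_Con has the highest mean for the other 8 genes.

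THI7 encodes the main thiamine permease of the plasma membrane. It had 0.04, 0.96 and 0.92 in CTR1D300 cultures, against 2.36, 2.65 and 2.56 in Dctr1_Con cultures, a log2 fold change of -1.88 ± 0.21 (limma adjusted p = 3.19e-05). Every CTR1D300 culture lay below every Dctr1_Con culture, and CTR1D300 replicate 1 lay well below the other 2. The difference was -2.32 on slide 1 and -1.67 on slide 3, and without CTR1D300 replicate 1 the fold change was -1.58.

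THI72, a close relative of THI7 whose product carries thiamine with low affinity, went the opposite way. Its levels were -3.54, -3.74 and -3.49 in CTR1D300 and -4.27, -4.34 and -4.23 in Dctr1_Con, a log2 fold change of 0.69 ± 0.07 (limma adjusted p = 1.59e-05). All CTR1D300 cultures were above all Dctr1_Con cultures. The probe was dim, with processed signals between 228.1 and 578.2 over the 12 arrays. Its 2 spots gave 0.86 and 0.53.

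THI73 encodes a putative permease of the plasma membrane that may carry carboxylic acids. It had the largest fall of the 10 genes and rank 4 among the falls of all 6127 genes. Its levels were -3.42, -2.17 and -2.47 in CTR1D300, against 0.69, 1.25 and 1.32 in Dctr1_Con, a log2 fold change of -3.77 ± 0.32 (limma adjusted p = 4.49e-06). Replicate 1 was the lowest culture of both groups, and the groups stayed far apart. The difference was -4.12 on slide 1 and -3.60 on slide 3.

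Among the regulators, THI2 encodes the zinc finger activator of the thiamine genes. It had -3.72, -3.25 and -3.35 in CTR1D300, against -0.58, -0.61 and -0.63 in Dctr1_Con, a log2 fold change of -2.84 ± 0.15 (limma adjusted p = 1.69e-07). The Dctr1_Con cultures were nearly level with each other, and all CTR1D300 cultures were far below them. The difference was -3.15 on slide 1 and -2.69 on slide 3.

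THI3 encodes a relative of pyruvate decarboxylase that acts with Thi2 and Pdc2 and takes part in sensing thiamine pyrophosphate. Its levels were -1.17, -1.36 and -1.23 in CTR1D300 and -0.72, -0.77 and -0.79 in Dctr1_Con, a log2 fold change of -0.49 ± 0.07 (limma adjusted p = 0.000205). The groups were separate by a small margin, with -0.46 on slide 1 and -0.51 on slide 3.

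PDC2, whose product is a DNA-binding activator of pyruvate decarboxylase and thiamine genes, was the regulator that rose. It had 0.44, 0.42 and 0.39 in CTR1D300, against -0.02, 0.22 and 0.07 in Dctr1_Con, a log2 fold change of 0.32 ± 0.07 (limma adjusted p = 0.00358). All CTR1D300 cultures were above all Dctr1_Con cultures, though the gap was small. Without slide 1 the value was 0.26 and the call was lost (adjusted p = 0.0648).

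THI80 encodes thiamine pyrophosphokinase, the enzyme that converts thiamine to its pyrophosphate. Its levels were -2.24, -1.99 and -2.01 in CTR1D300 and -1.76, -1.52 and -1.48 in Dctr1_Con, a log2 fold change of -0.50 ± 0.11 (limma adjusted p = 0.00290). Replicate 1 was the lowest culture of each group and the groups did not overlap. The difference was -0.48 on slide 1 and -0.50 on slide 3.

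PET18, a gene of unknown role whose product resembles the carboxy-terminal part of the Thi20 enzyme, had the smallest p-value of the 10. It had -1.96, -1.77 and -2.01 in CTR1D300, against 1.09, 1.13 and 1.09 in Dctr1_Con, a log2 fold change of -3.02 ± 0.07 (limma adjusted p = 7.97e-10). Its p-value ranked 2 among all 6127 genes and its fall ranked 14. The groups were wide apart on both slides, by -3.05 on slide 1 and -3.00 on slide 3.

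PDC5 encodes an isoform of pyruvate decarboxylase, a thiamine pyrophosphate enzyme of alcoholic fermentation. Its levels were -1.23, -0.87 and -1.12 in CTR1D300, against 1.31, 1.54 and 1.47 in Dctr1_Con, a log2 fold change of -2.52 ± 0.13 (limma adjusted p = 1.70e-07). The groups lay far apart on both slides, by -2.55 on slide 1 and -2.50 on slide 3. The size depended on the spot read, -2.98 from the lower-numbered and -2.05 from the higher-numbered spot of the probe.

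PHO3 encodes a periplasmic acid phosphatase that hydrolyses thiamine phosphates ahead of uptake. It had 0.36, 0.91 and 0.83 in CTR1D300, against 2.24, 2.47 and 2.41 in Dctr1_Con, a log2 fold change of -1.67 ± 0.13 (limma adjusted p = 2.34e-06). All CTR1D300 cultures were below all Dctr1_Con cultures, and replicate 1 was again the lowest of each group. The difference was -1.88 on slide 1 and -1.57 on slide 3. Its size also depended on the spot read, -1.90 from the lower-numbered and -1.45 from the higher-numbered spot.

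Each of the 10 genes was called in the same direction with either of its 2 spots alone, where 38.3% of all genes were. CTR1D300 replicate 1 had the lowest level of its group for THI7, THI73, THI2, THI80, PDC5 and PHO3. With that array left out, all 10 calls remained, 2 higher and 8 lower.

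The second comparison asked what the CTR1 deletion changed, with an empty vector in both strains. PDC5, PET18, PHO3 and THI3 were higher in the deletion strain, by 3.09-fold, 2.19-fold, 1.72-fold and 1.47-fold. THI73, THI2 and THI7 also had higher means there but were not called. Of the 10 genes, 4 were called by limma, all of them higher, where 0.490% of all genes were called and 0.326% were called higher. The median log2 fold change was 0.54 over the 10 genes and -0.03 over all genes tested. Levels of the groups did not overlap for 7 of the 10 genes, against 14.9% of all genes, and 7 had an unadjusted p under 0.05, against 8.57% of all genes.

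PDC5 had 1.31, 1.54 and 1.47 in Dctr1_Con, against -0.35, -0.11 and -0.09 in WT_Con, a log2 fold change of 1.63 ± 0.13 (limma adjusted p = 7.66e-05). PET18 had 1.09, 1.13 and 1.09 in Dctr1_Con, against -0.04, 0.05 and -0.09 in WT_Con, a log2 fold change of 1.13 ± 0.07 (limma adjusted p = 1.75e-05). For both genes every deletion-strain culture lay above every wild-type culture by a wide margin. On slide 1, the only slide with both strains, PDC5 differed by 1.66 and PET18 by 1.13.

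THI3 had -0.72, -0.77 and -0.79 in Dctr1_Con, against -1.26, -1.34 and -1.34 in WT_Con, a log2 fold change of 0.56 ± 0.07 (limma adjusted p = 0.00366). Its groups did not overlap and its slide 1 difference was 0.55, although without slide 1 the call was lost (adjusted p = 0.0579). PHO3 had 2.24, 2.47 and 2.41 in Dctr1_Con, against 1.64, 1.49 and 1.64 in WT_Con, a log2 fold change of 0.78 ± 0.13 (limma adjusted p = 0.0260). PHO3 is the least secure of the 4 calls. It was 0.61 on slide 1 and 0.47 with slide as a fixed block (adjusted p = 0.122), and the call was lost in 8 of 26 alternatives.

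THI73 had the largest difference without a call. Its levels were 0.69, 1.25 and 1.32 in Dctr1_Con and -0.55, 0.27 and -0.15 in WT_Con, a log2 fold change of 1.23 ± 0.32 (limma adjusted p = 0.192, and 0.00444 with a replicate block). Replicates 2 and 3 of the strains lay on different slides, so that block may not pair the arrays. The lowest deletion-strain culture lay above the highest wild-type culture, and replicate 1 was the lowest of each group. THI2 had -0.58, -0.61 and -0.63 in Dctr1_Con, against -1.04, -1.22 and -1.08 in WT_Con, a difference of 0.51 ± 0.15 (limma adjusted p = 0.254, and 0.0394 when only these groups were fitted). THI7 had 2.36, 2.65 and 2.56 in Dctr1_Con, against 1.88, 2.18 and 1.91 in WT_Con, a difference of 0.53 ± 0.21 (limma adjusted p = 0.449). Neither gene's groups overlapped, and the slide 1 differences were 1.24 for THI73, 0.46 for THI2 and 0.48 for THI7.

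The other 3 genes showed no difference beyond their spread. THI80 was at 0.23 ± 0.11 (limma adjusted p = 0.612), THI72 at 0.03 ± 0.07 (adjusted p = 0.969) and PDC2 at -0.05 ± 0.07 (adjusted p = 0.950). On slide 1 THI80 differed by 0.02. Outside slide 1 the strains lay on different slides, so strain and slide cannot be told apart there.

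**Figure D2:**
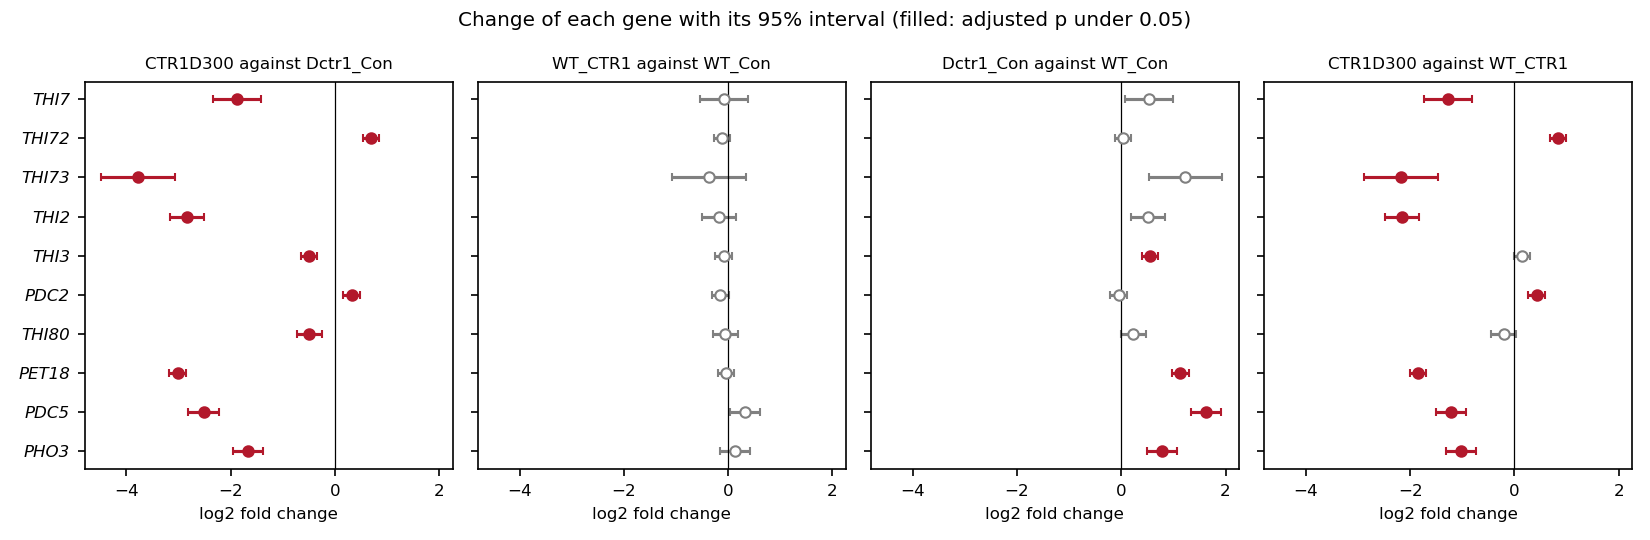
Log2 fold change of each gene (x axis) in 4 comparisons, with its 95% interval from the limma fit, and filled points for adjusted p under 0.05. With CTR1D300 8 genes lie left of 0 and THI72 and PDC2 right of it, no point is filled for WT_CTR1 against WT_Con, and THI3, PET18, PDC5 and PHO3 are filled right of 0 for Dctr1_Con against WT_Con.

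The third comparison set wild type over-expressing CTR1 against wild type with the empty vector. None of the thiamine-linked genes was called: 0 of 10 by limma, where 13.3% of all genes were. PDC5 alone had an unadjusted limma p under 0.05 (1 of 10), as did 27.3% of all genes. The 95% intervals allowed a fall of THI7 of at most 0.55 and of PET18 of at most 0.20 on the log2 scale. THI7 had 2.0, 1.99 and 1.74 in WT_CTR1, against 1.88, 2.18 and 1.91 in WT_Con, and these ranges overlapped. PET18 had -0.03, -0.13 and -0.03 in WT_CTR1, against -0.04, 0.05 and -0.09 in WT_Con, again with overlap.

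THI73 had the widest interval of the comparison. Its levels were -0.80, -0.17 and -0.56 in WT_CTR1, against -0.55, 0.27 and -0.15 in WT_Con, a log2 fold change of -0.37 with an interval of -1.07 to 0.34 (limma adjusted p = 0.502). THI2 had -1.07, -1.64 and -1.15 in WT_CTR1, against -1.04, -1.22 and -1.08 in WT_Con, with an interval of -0.50 to 0.16. For THI2 the spread came from WT_CTR1 replicate 2, which lay below the other 5 wild-type cultures. PHO3 had 1.84, 1.63 and 1.72 in WT_CTR1, against 1.64, 1.49 and 1.64 in WT_Con, with an interval of -0.15 to 0.43. The intervals were -0.24 to 0.07 for THI3, -0.31 to 0.01 for PDC2, -0.27 to 0.04 for THI72 and -0.29 to 0.18 for THI80. Groups did not overlap for 3 of the 10 genes, THI72, PDC2 and PDC5, against 30.7% of all genes.

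PDC5 was the gene whose call depended on the spot. It had 0.06, -0.04 and 0.41 in WT_CTR1, against -0.35, -0.11 and -0.09 in WT_Con, a log2 fold change of 0.33 ± 0.13 (limma adjusted p = 0.141). Its lower-numbered spot gave -0.29 (adjusted p = 0.162) and its higher-numbered spot 0.97 (adjusted p = 0.000851), so the spots went opposite ways. The spots also differed in sign for THI72 (0.04 and -0.24) and PHO3 (-0.03 and 0.33), without a call from either. The lower-numbered spot read -0.11, -0.31 and 0.17 in WT_CTR1, against -0.02, 0.33 and 0.32 in WT_Con. The higher-numbered spot read 0.22, 0.23 and 0.66 in WT_CTR1, against -0.71, -0.55 and -0.53 in WT_Con. The lower-numbered spot was the dimmer on all 6 over-expressing arrays and the brighter on all 6 empty-vector arrays, and these lie in different slide columns. Between groups of the same column the spots gave values of the same sign, -1.21 and -1.22 for CTR1D300 against WT_CTR1, and 1.48 and 1.79 for Dctr1_Con against WT_Con.

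**Figure D3:**
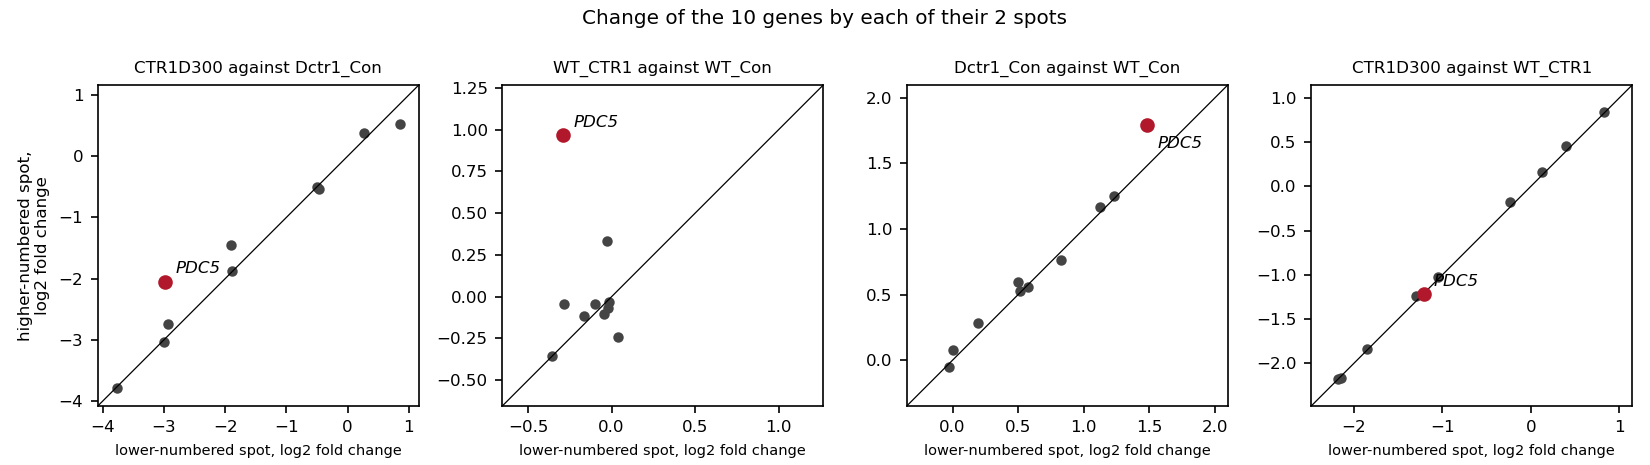
Log2 fold change of the 10 genes from the lower-numbered spot (x axis) and from the higher-numbered spot (y axis) of each probe, with the line of equal values. PDC5 is marked: it lies at -0.29 and 0.97 for WT_CTR1 against WT_Con and on the line for CTR1D300 against WT_CTR1.

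The construct effect in the deletion strain was then set against the construct effect in wild type, as an interaction in the same fit. It differed for 10 of 10 genes, 2 higher and 8 lower in the deletion strain, where 46.4% of all genes differed. The difference between the effects was -3.41 ± 0.45 for THI73 (limma adjusted p = 0.000163), -2.98 ± 0.10 for PET18 (adjusted p = 3.74e-08) and -2.67 ± 0.21 for THI2 (adjusted p = 4.05e-06). For THI80 it was -0.44 (adjusted p = 0.0366), and that call was lost in 12 of 25 alternatives, among them quantile normalisation (-0.33, adjusted p = 0.0871). For PDC5 the spots gave -2.69 and -3.01. The strains carried different constructs, so strain and construct cannot be told apart in this contrast.

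The over-expressing groups were also compared directly, on arrays that share a slide column and include none of the empty-vector cultures. Strain, construct and LEU2 level differ together between these groups, and their replicates 2 and 3 lay on different slides. These cannot be told apart here. Here 8 of 10 genes were called, 2 higher and 6 lower in CTR1D300, where 62.9% of all genes were called and 7.83% were called and at least 2-fold lower. The 6 lower genes were all at least 2-fold lower: THI73 (-2.18 ± 0.32), THI2 (-2.16 ± 0.15), PET18 (-1.85 ± 0.07), THI7 (-1.27 ± 0.21), PDC5 (-1.22 ± 0.13) and PHO3 (-1.03 ± 0.13). Their limma adjusted p ranged from 1.34e-08 for PET18 to 0.000379 for THI7. THI72 was higher by 0.83 ± 0.07 (adjusted p = 2.49e-06) and PDC2 by 0.43 ± 0.07 (adjusted p = 0.000489). These directions held on slide 1, which had 1 array per group. The differences there were -2.63 for THI73, -2.65 for THI2, -1.93 for PET18, -1.95 for THI7, -1.29 for PDC5, -1.48 for PHO3, 0.88 for THI72 and 0.43 for PDC2.

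THI3 and THI80 were the genes not called between the over-expressing groups. THI3 was at 0.15 ± 0.07 (limma adjusted p = 0.0968) and was called with quantile normalisation (0.23, adjusted p = 0.0107) and with median centring (0.23, adjusted p = 0.0144). THI80 was at -0.21 ± 0.11 (adjusted p = 0.116) and was called with slide as a fixed block (-0.37, adjusted p = 0.0257). The median of all genes lay at -0.11 in this comparison. The share of called genes that were higher was 38.9%, against 50.5% with quantile normalisation and 48.0% with median centring.

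Ordered by group mean, the 10 genes fell into a few patterns. THI7, THI73, THI2, THI80, PET18, PDC5 and PHO3 were highest in Dctr1_Con and lowest in CTR1D300, with both wild-type groups between. PET18 averaged -1.91 ± 0.13 in CTR1D300, 1.11 ± 0.03 in Dctr1_Con, -0.06 ± 0.06 in WT_CTR1 and -0.03 ± 0.07 in WT_Con (SD, n = 3 each), and its wild-type groups did not differ beyond their spread. THI80 followed the same order within a narrow range, at -2.08 ± 0.14 in CTR1D300, -1.59 ± 0.15 in Dctr1_Con, -1.87 ± 0.09 in WT_CTR1 and -1.82 ± 0.16 in WT_Con. Of the 4 pairs tested for THI80, only CTR1D300 and Dctr1_Con were called apart. THI3 was at -1.26 ± 0.10 in CTR1D300, -0.76 ± 0.04 in Dctr1_Con, -1.40 ± 0.10 in WT_CTR1 and -1.32 ± 0.05 in WT_Con, and so stood out in Dctr1_Con alone. THI72 was high in CTR1D300 alone, at -3.59 ± 0.13, with -4.28 ± 0.05 in Dctr1_Con, -4.42 ± 0.02 in WT_CTR1 and -4.31 ± 0.04 in WT_Con. PDC2 also had its highest mean in CTR1D300, 0.42 ± 0.02, against -0.01 ± 0.06 to 0.14 ± 0.08 in the other groups.

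Likeness of pattern was measured over the 12 arrays as the root mean square difference of levels centred per gene, so a small value means a close match in shape and size. The nearest genes of PET18 were THI20 (0.253), SNZ2 (0.283) and THI12 (0.317). Those of PDC5 were SNZ2 (0.302), THI21 (0.335) and SNZ3 (0.335), and those of PHO3 were THI6 (0.163), SNO2 (0.186) and THI21 (0.198). THI7 was nearest to PLB2 (0.156), a phospholipase B gene, then to SNO3 (0.241) and THI6 (0.257). THI73 was nearest to THI11 (0.455), THI20 (0.557) and THI5 (0.563). These differences are larger, but THI73 also varied most of the 10 genes, with a root mean square level of 1.41. Among the 10 genes themselves, THI7 and PHO3 were each other's nearest (0.225), as were THI3 and THI80 (0.225). The same held for THI2 and PET18 (0.288) and for THI72 and PDC2 (0.204). The nearest genes of THI72 (ARE1, 0.0721), PDC2 (TRM8, 0.0552), THI80 (KSS1, 0.103) and THI3 (YPL245W, 0.130) were no thiamine genes. These 4 genes varied little themselves, with a root mean square level of 0.172 to 0.335 over the arrays.

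Close relatives in sequence moved differently from several of the 10 genes. THI7 fell by 1.88 with CTR1D300 while NRT1, its nicotinamide riboside permease relative, fell by 0.37 (SE 0.08, limma adjusted p = 0.00253) and THI72 rose. PDC1, the main pyruvate decarboxylase gene, was at 0.08 ± 0.17 (adjusted p = 0.706) and PDC6 at -0.45 ± 0.11 (adjusted p = 0.00482), against -2.52 for PDC5. In wild type, PDC6 rose with CTR1 by 1.12 ± 0.11 (adjusted p = 0.000169), a comparison in which PDC5 was not called. PHO5, the phosphate-regulated phosphatase gene next to PHO3, was at -0.42 ± 0.09 (adjusted p = 0.00254) with CTR1D300 and at -0.30 (adjusted p = 0.266) for Dctr1_Con against WT_Con, where PHO3 was called higher. THI20, which resembles PET18, fell by 2.55 (SE 0.15). Such relatives may share probe signal, and this was not tested.

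The rest of the pathway was read from fixed lists. All 9 thiamine synthesis genes were called lower with CTR1D300 (median -3.34), where 30.6% of all genes were. They were led by the thiazole enzyme THI4 (-6.70 ± 0.18) and the pyrimidine genes THI11 (-3.72 ± 0.13), THI13 (-3.58 ± 0.17) and THI5 (-3.43 ± 0.13). With either spot alone, 8 of the 9 were called. For Dctr1_Con against WT_Con, 8 of the 9 were called higher (median 1.44), where 0.326% of all genes were. For WT_CTR1 against WT_Con, where 13.3% of all genes were called, 1 of 9 was called higher and 0 lower. That gene, THI22, named after its values were seen, was at 0.35 (limma adjusted p = 0.0132). Its spots gave 0.06 (adjusted p = 0.666) and 0.66 (adjusted p = 0.000482). Spots also disagreed there for list genes without a call from their mean. THI6, named after its values were seen, gave 0.34 (adjusted p = 0.00956) and -0.26 (adjusted p = 0.0287), opposite ways. THI20 gave 0.51 (adjusted p = 0.0288) and -0.09 (adjusted p = 0.728). THI11 gave -0.06 (adjusted p = 0.751) and -0.59 (adjusted p = 0.0182). For CTR1D300 against Dctr1_Con the THI22 spots gave -0.72 and -0.14, the latter without a call (limma adjusted p = 0.190). THI5, THI11, THI12 and THI13 are near-identical and uncertain as single genes. Of the SNZ and SNO genes, which belong to vitamin B6 synthesis, 4 of 6 fell with CTR1D300, among them SNZ2 (-2.24 ± 0.07) and SNZ3 (-2.02 ± 0.07). The remaining pair rose, SNO1 by 2.90 ± 0.40 and SNZ1 by 2.36 ± 0.35, where 24.0% of all genes were called higher. For WT_CTR1 against WT_Con this pair was called lower, SNO1 at -2.28 ± 0.40 and SNZ1 at -2.22 ± 0.35. The WT_CTR1 cultures were uneven, at -4.45, -2.44 and -4.18 for SNO1 and -0.33, 1.36 and -0.13 for SNZ1. For Dctr1_Con against WT_Con, 4 of these 6 were called, all higher, and 2 of the 6 were called with either spot alone.

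The enzymes that use thiamine pyrophosphate did not move as 1 group. Of 9 such genes other than PDC5, 3 rose and 3 fell with CTR1D300 (median 0.08), where 24.0% of all genes were called higher and 30.6% lower. The transketolase gene TKL2 fell by 2.10 (SE 0.28) and the oxoglutarate dehydrogenase gene KGD1 by 0.67 (SE 0.09). ILV2, an acetolactate synthase gene, rose by 1.22 ± 0.20, and ARO10, a decarboxylase gene, rose by 0.61 ± 0.23 (limma adjusted p = 0.0452), a call lost in 10 of 26 alternatives. None of the 9 was called for Dctr1_Con against WT_Con by limma, where 0.490% of all genes were. Of the 9, 0 had an unadjusted p under 0.05, against 8.57% of all genes.

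The permease relatives of THI7 and THI73 were mixed too. With CTR1D300, 54.5% of all genes were called, 24.0% higher and 30.6% lower, which is the background for the counts below. In the THI7 family, 2 of 4 rose, the uracil permease gene FUR4 (1.41 ± 0.17) and the uridine permease gene FUI1 (0.56 ± 0.20, its call lost in 6 of 26 alternatives), and 2 fell, NRT1 and the allantoin permease gene DAL4 (-0.45 ± 0.13). In the THI73 family, 3 of 7 were called: the biotin transporter gene VHT1 (-1.93 ± 0.13), the nicotinic acid permease gene TNA1 (-1.05 ± 0.08) and SEO1 (0.38 ± 0.07). The SEO1 spots gave 0.15 (limma adjusted p = 0.149) and 0.60 (adjusted p = 2.90e-05), so its call depended on the spot. Of 12 genes of acid phosphatase and the phosphate response, 2 rose and 6 fell with CTR1D300 (median -0.18). PHO89, a phosphate transporter gene, rose by 3.17 ± 0.31 and SPL2 by 1.69 ± 0.39, while the phosphatase genes PHO12 and PHO11 fell by 1.1 (SE 0.10) and 0.72 (SE 0.09). None of these 3 lists had a member called for Dctr1_Con against WT_Con by limma, where 0.490% of all genes were. An unadjusted p under 0.05 was found for 0 of 4, 2 of 7 and 8 of 12 members, against 8.57% of all genes. For the 12 phosphatase and phosphate genes the median was -0.25 in that comparison, and the groups did not overlap for 8 of them, against 14.9% of all genes.

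Of the 20 genes called higher for Dctr1_Con against WT_Con, 8 were thiamine synthesis genes, 4 were PDC5, PET18, PHO3 and THI3, and 4 were SNZ2, SNZ3, SNO2 and SNO3. The other 4 were IMD2 (0.97 ± 0.09), EEB1 (0.61 ± 0.09), PHD1 (0.44 ± 0.08) and AME1 (0.43 ± 0.07), named after their values were seen. Of the 20 steepest falls with CTR1D300, 5 were thiamine synthesis genes, 3 were THI73, PET18 and THI2, and 12 were on none of the lists. These 12 include LEU2 (-6.38), the steepest fall after THI4, and the biotin genes BIO5 (-3.92), BIO3 (-3.27), BIO2 (-3.16) and BIO4 (-3.05). They were named after their values were seen. Both counts of thiamine synthesis genes include the near-identical THI5, THI11, THI12 and THI13. These may share probe signal, so they may not count as 4 separate genes. Whether SNZ2 and SNZ3, or SNO2 and SNO3, share probe signal was not tested.

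THI7, THI73 and PDC5 lie on chromosome XII, THI72 and THI80 on XV, THI3 and PDC2 on IV, THI2 and PHO3 on II and PET18 on III, at separate places. Of the 20 genes directly beside them in the RefSeq gene order, 18 were tested. With CTR1D300, 11 of these 18 were called, 6 higher and 5 lower, where 54.5% of all genes were called, 24.0% higher and 30.6% lower. Of the 18, 0 were at least 2-fold lower, where 4.72% of all genes were called and at least 2-fold lower. The largest values were 1.13 for VPS41 beside PDC2, -0.91 for CKI1 beside PDC5 and 0.82 for CMS1 beside THI73. MAK32 and MAK31, on either side of PET18, were at 0.11 and 0.74 while PET18 itself fell by 3.02. For Dctr1_Con against WT_Con, 0 of the 18 neighbours were called by limma, where 0.490% of all genes were. Of the 18, 1 had an unadjusted p under 0.05, against 8.57% of all genes.

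**Figure D4:**
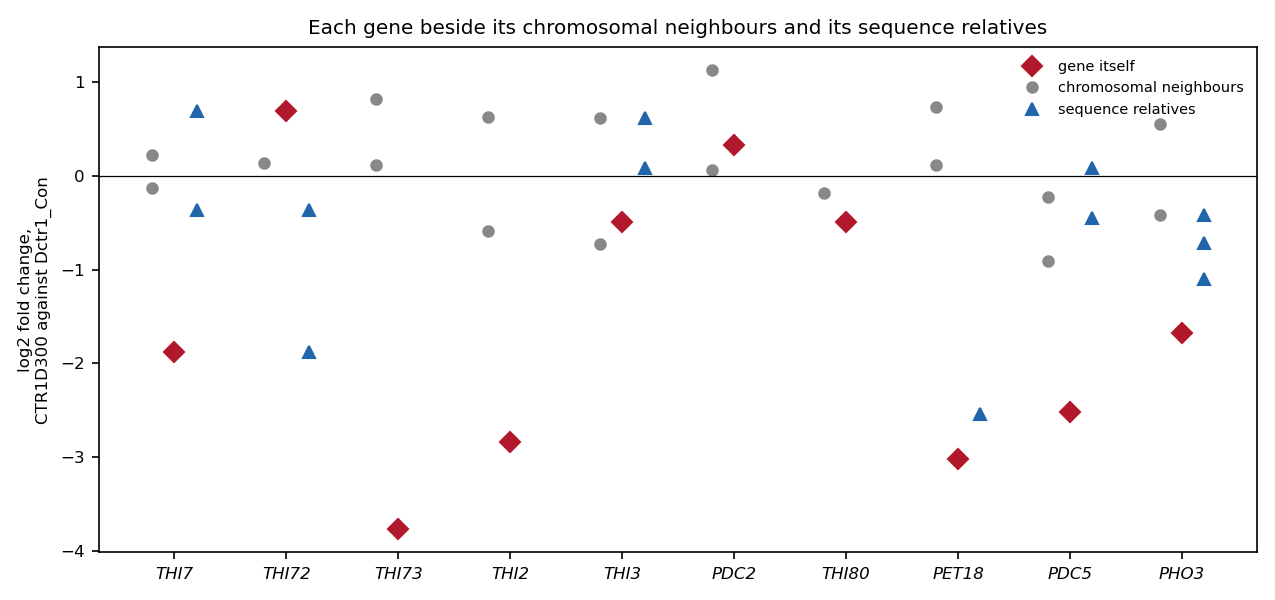
Log2 fold change of each gene for CTR1D300 against Dctr1_Con (y axis, diamonds), beside its chromosomal neighbours (circles) and its sequence relatives (triangles). The diamonds of THI7, THI73, THI2, PET18, PDC5 and PHO3 lie below all of their neighbours, which reach -0.91 at the lowest, and the triangle nearest to its diamond in size is THI20 beside PET18.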

How the data were processed

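Expression was measured in 12 yeast cultures on single-colour Agilent arrays (Cy3). Per the file headers, Agilent Feature Extraction 10.7.1.1 made the deposited files for array design 016322, annotated on sacCer1. The deposited processed signal is a background-subtracted, detrended intensity per spot that is not scaled between arrays, and the deposited flags (other: 0 or 1) mark spots above background. The authors' series matrix holds log2 values with 1 shared column median of 11.69 for 5191 gene probes, and its column for each array followed that array's scanner signal (r of at least 0.999694). It was used as an alternative and lacks THI72. The sources used here do not state how its probes were chosen.

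Levels are log2 processed signals, as the mean of a probe's 2 spots, less the 75th percentile of that array. A gene with several probes was represented by its brightest. Of 6256 gene probes, 6155 were well above background on at least 3 arrays, which left 6127 genes. Median signal per array ranged from 1792 to 2999, 96.5% to 98.9% of probes were above background and 0 spots were saturated. Group means were fitted to all 12 arrays with limma 3.58.1 in R 4.3.3, with 8 residual degrees of freedom. Benjamini-Hochberg adjustment ran over all genes within a comparison. The procedure was first tested on simulated data whose arrays varied independently. That test does not cover the likeness of same-numbered arrays given below. P-values measure the spread between these cultures, which the labels call independent experiments.

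The 10 genes, the lists and the tests were chosen with earlier results of these data known. All 10 are named, with up to 4 called members per list with the largest change for CTR1D300 against Dctr1_Con, and the sequence relatives of the 10. Comparisons that share a group are not independent: Dctr1_Con enters the CTR1D300 and the deletion comparison, and WT_Con the deletion and the CTR1 comparison. Arrays with the same replicate number departed from their group means alike, with r across genes of 0.679, 0.699 and 0.394 for CTR1D300 with Dctr1_Con, 0.750, 0.692 and 0.342 for WT_CTR1 and WT_Con, and 0.554, 0.295 and 0.134 for Dctr1_Con and WT_Con. Between CTR1D300 and WT_CTR1 r was 0.381, 0.407 and -0.03, so the numbers were not taken to pair those arrays. Alternatives were other normalisations, background correction, filters, single spots, blocks for replicate or slide, and arrays left out. Of 6228 genes, 5740 took their symbol from a RefSeq table (assembly R64) that served for names and gene order only. Coordinates and sequences were not used here.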

Additional observations from a re-analysis of the deposited data

Results flagged for a closer look

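The construct effect in the deletion strain (CTR1D300 minus Dctr1_Con) differed from that in wild type (WT_CTR1 minus WT_Con) for all 10 genes. This was tested as an interaction with limma, which called 46.4% of all genes. The log2 difference between the effects was -1.80 for THI7, 0.80 for THI72, -3.41 for THI73, -2.67 for THI2, -0.41 for THI3, 0.48 for PDC2, -2.98 for PET18, -2.84 for PDC5, -0.44 for THI80 and -1.81 for PHO3. It moved with the construct, the strain and LEU2 together, and the part of each was not tested.

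Named genes of the other lists differed by the same interaction, as did 46.4% of all genes. Among thiamine synthesis genes the difference was -6.43 for THI4, -3.38 for THI11, -3.26 for THI13, -3.32 for THI5 and -2.74 for THI20. In the SNZ and SNO list it was 5.18 for SNO1, 4.58 for SNZ1, -2.26 for SNZ2 and -2.22 for SNZ3, so its members moved in opposite directions. Among enzymes that use thiamine pyrophosphate it was -2.80 for TKL2, 2.23 for ILV2, -0.57 for KGD1 and -1.57 for PDC6. In the permease families it was 1.92 for FUR4, -0.61 for DAL4, -1.89 for VHT1, -1.16 for TNA1 and 0.41 for SEO1. Among phosphatase and phosphate genes it was 3.68 for PHO89, 2.91 for SPL2, -1.07 for PHO12, -0.61 for PHO5 and -0.92 for PHO11.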

How the results depend on the processing

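No called result reversed under any alternative run. For single genes among the 10, 258 of 259 alternative values for CTR1D300 against Dctr1_Con stayed on their side of the threshold, as did 258 of 259 for WT_CTR1 against WT_Con, 248 of 259 for Dctr1_Con against WT_Con, 251 of 259 for CTR1D300 against WT_CTR1 and 237 of 249 for the interaction. The count called for WT_CTR1 against WT_Con was 0, and 1 with the higher-numbered spot alone (PDC5). With a replicate block, 5 genes were called for Dctr1_Con against WT_Con in place of 4, THI73 being added. No other call among the 10 changed with it there, for CTR1D300 against Dctr1_Con, for WT_CTR1 against WT_Con or in the interaction. The block added THI3 for CTR1D300 against WT_CTR1 (adjusted p = 0.0226), as did leaving out WT_CTR1 replicate 1 (0.0456) or CTR1D300 replicate 2 (0.0438). In both comparisons across strains the replicate numbers may not pair the arrays. The THI80 interaction was -0.37 with median centring (adjusted p = 0.0639), -0.49 without slide 1 (0.0608), and its call was lost without WT_Con replicate 1 or 2, WT_CTR1 replicate 1 or 3, Dctr1_Con replicate 2 or 3 or CTR1D300 replicate 1 (0.0529 to 0.0874). The PHO3 call for Dctr1_Con against WT_Con was also lost with normexp (0.67, adjusted p = 0.0615) and without WT_Con replicate 1, 2 or 3, WT_CTR1 replicate 3 or Dctr1_Con replicate 2 or 3 (adjusted p from 0.0530 to 0.127). Over all genes, 813 were called for WT_CTR1 against WT_Con, and 1362 with the lower-numbered spot, 1677 with a replicate block, 1307 and 1338 with slide as a fixed and a random block, 349 without slide 1 and 482 to 539 without WT_CTR1 replicate 1 or 3 or WT_Con replicate 2 or 3. For Dctr1_Con against WT_Con 30 were called, 99 with a replicate block (36 higher and 63 lower) and 18 without WT_Con replicate 1 or 3 or Dctr1_Con replicate 3. Fitting only the groups compared is the same fit for the interaction, and THI72 has no value in the series matrix. Signal was low for THI72 on all arrays.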

Other observations

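Several of the nearest matches in pattern carry systematic names that adjoin those of thiamine genes. YJR154W and AAD10 (YJR155W), at 0.226 and 0.268 from THI2 over 12 arrays, stand before THI11 (YJR156C) in this numbering and had log2 fold changes of -2.61 and -2.42 for CTR1D300 against Dctr1_Con. AAD14 (YNL331C), at 0.160 from THI3, stands before THI12 (YNL332W), SNZ2 (YNL333W) and SNO2 (YNL334C), and was at -0.63. These genes were singled out after their values were seen.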
